A study of Mus musculus with 4 samples.

Results

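The claudins of mouse chromosome 16 that lie between Naa60 and Mrps6 are Cldn1, Cldn5, Cldn8, Cldn16 and Cldn17. These 5 genes were picked by their listed symbol from the 36186 rows of the deposited expression table, and each symbol had 1 row there. RNA was sequenced from cells of the kidney-ureter junction of SV/129 mouse embryos at E13.5. The embryos are labelled PTC-/-MM, for a deletion of PTC1, the main hedgehog receptor, in metanephric mesenchyme, from which the nephrons form. An antibody against PTC2, a second receptor of that pathway, served to sort the cells into PTC2+ cells (2 libraries) and PTC2- cells (2 libraries). Both populations come from mutant tissue, and no normal tissue was analysed here. The Cre line that made the deletion and the number of embryos behind a library are not given in the sources used here, and p-values here measure no more than the spread among the 4 libraries, which may be technical.

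Claudins are membrane proteins with several spans that form the strands of tight junctions, the seals between neighbouring epithelial or endothelial cells. Which claudins a cell makes sets which ions pass between cells. CLDN8 is a barrier-forming claudin of the distal nephron and the collecting duct. CLDN1 builds tight barriers in many epithelia, skin among them. CLDN5 seals endothelium and is best known from the blood-brain barrier. CLDN16 serves magnesium and calcium reabsorption in the thick ascending limb of the nephron, and CLDN17 forms an anion-selective pathway in the proximal nephron.

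All of these genes but Cldn5 stand in neighbouring pairs, Cldn1 beside Cldn16 and Cldn17 beside Cldn8. In each pair the listed levels of the members lay far apart. Reads of Cldn8 and Cldn17 would be hard to tell apart if the genes were near-identical. Their coding sequences (GENCODE M21, GRCm38) were therefore aligned and were 64.1% identical over 666 aligned bases, and the longest run that they share without a mismatch had 12 bases. This stretch of 72 coding bases, of which 48 are the same in both genes, holds that run in capitals; it covers coding bases 399 to 470 on the minus strand, at chr16:88562566-88562637 for Cldn8 and chr16:88506370-88506441 for Cldn17.
Cldn8: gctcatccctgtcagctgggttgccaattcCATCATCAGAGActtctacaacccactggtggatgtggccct
Cldn17: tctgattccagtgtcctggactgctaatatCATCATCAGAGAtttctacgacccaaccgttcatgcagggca
The other pairs of members were 54.6% to 61.0% identical, with longest shared runs of 9 to 14 bases. Untranslated parts were not compared.

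The promoters of the Cldn1 and Cldn16 pair are shown because Cldn1 was among the better expressed genes of the region and Cldn16 was listed at 0 in 3 of 4 libraries. Each runs from 250 bases before to 50 bases after the gene's start (RefSeq, GRCm38.p6), and capitals mark the GC box GGGCGG, searched on both strands. Cldn1 lies at chr16:26371790-26372089 on the minus strand and Cldn16 at chr16:26462885-26463184 on the plus strand.
Cldn1: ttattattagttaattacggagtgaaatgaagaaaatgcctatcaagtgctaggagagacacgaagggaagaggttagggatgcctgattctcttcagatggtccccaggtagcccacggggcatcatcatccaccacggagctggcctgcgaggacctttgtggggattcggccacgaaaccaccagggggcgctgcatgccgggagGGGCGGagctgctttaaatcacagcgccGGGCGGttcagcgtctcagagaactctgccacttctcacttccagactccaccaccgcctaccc
Cldn16: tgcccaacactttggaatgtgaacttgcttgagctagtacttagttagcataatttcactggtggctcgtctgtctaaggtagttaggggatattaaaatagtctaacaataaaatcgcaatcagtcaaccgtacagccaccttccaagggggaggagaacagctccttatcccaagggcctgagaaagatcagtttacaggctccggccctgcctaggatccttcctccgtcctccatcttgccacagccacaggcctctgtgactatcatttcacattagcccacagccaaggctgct
The window of Cldn1 held 2 GC boxes and 15 CpG dinucleotides, and that of Cldn16 held 0 and 5. The window of Cldn5 held 1 GC box and 12 CpG, and that of Cldn17 held 0 and 6; the median over the 32851 promoters of the table was 7 CpG, and 35.7% of them held a GC box. The GLI motif GACCACCCA and the Snail-type E-box CACCTG were found in none of the 4 windows, on either strand, and 0.253% and 20.2% of all promoters held them. The RefSeq table matched 4 of the 5 members; Cldn8 is named only.

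Values are in NRPKM, the authors' normalized form of RPKM (reads per length of gene and size of library). Levels of different genes can be compared as far as the normalization kept that scale, and its formula is not given. The columns summed to 283806 to 288752 NRPKM. The names in the table fitted the values on this part of the chromosome better than elsewhere: of 18 rows named as parts of the ribosome, proteasome, respiratory chain and similar machinery, 16 averaged 5 NRPKM or more, against 36.9% of 382 such rows in the rest of the table. Exceptions were Rpl39l and Rpl31-ps12. Of 24 hair keratin-associated and 42 olfactory receptor rows in the range, 0 averaged 1 NRPKM. The range was itself found from the levels in this table, so this is a description and not an independent test. Another 19 rows with a Cldn name lie outside it, and their names could not be relied on.

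Cldn8 was the claudin that differed between the populations. PTC2+ replicates 1 and 2 had 86.3 and 71.4 NRPKM, against 7.93 and 4.84 NRPKM in PTC2- replicates 1 and 2. Both PTC2+ libraries lay far above both PTC2- libraries. The PTC2+ mean of 78.9 ± 10.5 NRPKM was 12.4 times the PTC2- mean of 6.38 ± 2.19 NRPKM (SD, n = 2 each). The difference of log2(NRPKM + 1), PTC2+ minus PTC2-, was 3.46 with an SE of 0.29 and a 95% interval of 2.75 to 4.18 (limma adjusted p = 0.00953 over all 11807 rows tested). It was the 8th largest among the 475 rows tested in the range. The call was lost without PTC2+ replicate 1 (difference 3.33, adjusted p = 0.223), without PTC2+ replicate 2 (3.60, adjusted p = 0.233) and with no filter on low values (3.46, adjusted p = 0.0974). In sorted bulk RNA, fewer cells that make a transcript and less transcript per cell cannot be told apart.

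The PTC2- level of Cldn8 was low but, by an estimate, was not a level of single reads. One read per kilobase of gene came to an estimated 0.859 and 0.818 NRPKM for PTC2+ replicates 1 and 2, against 0.645 and 0.877 NRPKM for PTC2- replicates 1 and 2. With a transcript of 2356 bases, the Cldn8 values correspond to about 237 and 206 reads in the PTC2+ libraries and about 29.0 and 13 reads in the PTC2- libraries. These are estimates, since the authors' gene models are not given in the sources used here and only a minority of the low values sat at this step. Some listed values lay far below it, such as 0.00211 NRPKM for Muc4 in PTC2- replicate 1, so the step may not be the value of a single read. Cldn8 ranked above 83.2% of the 589 protein-coding rows of the range in PTC2+ cells and above 41.9% of them in PTC2- cells.

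**Figure D1:**
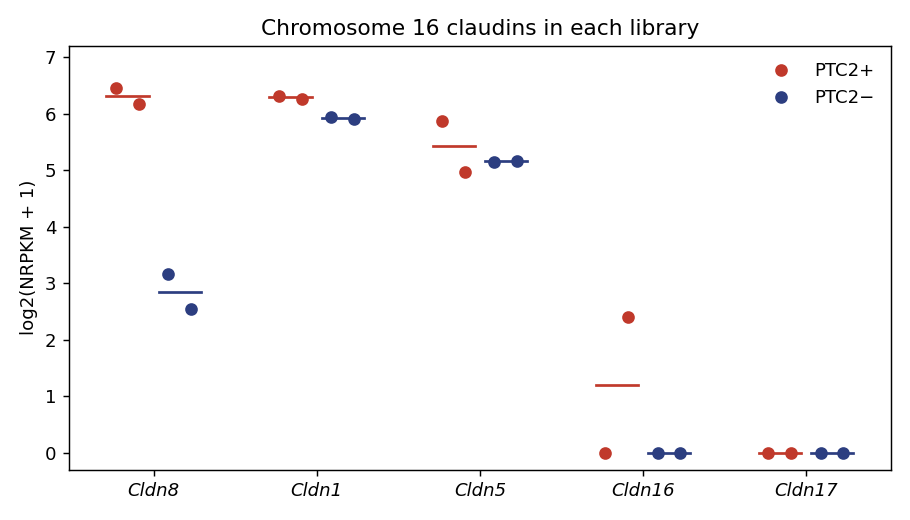
The points give log2(NRPKM + 1) of each claudin in each library, PTC2+ in red on the left and PTC2- in blue on the right, with a bar at the mean of 2 libraries. Cldn8 shows the wide gap, Cldn1 a narrow one, Cldn5 overlaps, and Cldn16 and Cldn17 lie at 0 except for 1 PTC2+ library of Cldn16.

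Cldn1 was well expressed in both populations. The PTC2+ libraries had 78.3 and 76.0 NRPKM, against 60.6 and 59.0 NRPKM in the PTC2- libraries. Both PTC2+ values lay above both PTC2- values, and the libraries of each population were close together (77.1 ± 1.66 and 59.8 ± 1.16 NRPKM, SD, n = 2 each). The log2 difference of 0.36 (SE 0.15, 95% interval -0.02 to 0.74) did not pass (limma adjusted p = 0.268). The interval leaves room for a difference near 0 and excludes one as large as that of Cldn8. Libraries that did not overlap, with PTC2+ on top, were found in 24.6% of all rows tested and in 28.2% of those in the range; with PTC2+ at the bottom the shares were 24.9% and 32.4%.

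Cldn5, the endothelial member, overlapped between the populations. PTC2+ replicates 1 and 2 had 57.8 and 30.3 NRPKM, against 34.6 and 34.9 NRPKM in PTC2- replicates 1 and 2. The PTC2- values were nearly equal and lay between the PTC2+ values. The log2 difference was 0.26 (SE 0.32, 95% interval -0.54 to 1.07; limma adjusted p = 0.722). Its direction rested on a single library: without PTC2+ replicate 1 the difference was -0.19 (adjusted p = 0.617), and without PTC2+ replicate 2 it was 0.72 (adjusted p = 0.286).

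Cldn16 and Cldn17 were at or near 0. For Cldn16, PTC2+ replicate 1 was listed at 0, PTC2+ replicate 2 at 4.30 NRPKM, and both PTC2- libraries at 0. By the estimate used for Cldn8, the single value above 0 corresponds to about 6.2 reads. Cldn17 was listed at 0 in all 4 libraries. Neither reached 1 NRPKM in 2 libraries, so neither was tested. With the filter removed Cldn16 did not pass (limma adjusted p = 0.613).

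Of the 3 claudins tested, 1 was called higher in PTC2+ cells and 0 lower by limma, and 1 had an unadjusted p under 0.05, as did 19.8% of all rows tested and 26.3% of those in the range. Over all rows tested 2.92% were called (2.44% higher and 0.483% lower), and in the chromosome 16 range 5.47% (5.26% higher and 0.211% lower). With 3 genes tested, the claudins' count cannot be read against these shares.

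The order of the levels differed between the populations. In PTC2+ cells Cldn8 and Cldn1 (means 78.9 and 77.1 NRPKM) did not differ beyond their spread, followed by Cldn5 (44.1 NRPKM), whose libraries both lay below those of Cldn1 and Cldn8. In PTC2- cells Cldn1 came first (59.8 NRPKM), then Cldn5 (34.8 NRPKM) and then Cldn8 (6.38 NRPKM), with no overlap between neighbours in that order. Cldn8 was 1.10 and 0.940 times Cldn1 in the PTC2+ libraries, against 0.131 and 0.0820 times in the PTC2- libraries. Such a ratio does not depend on library scaling if a single factor was used for each library, but the formula of the normalization is not given.

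Summed over the 5 claudins, the PTC2+ libraries had 222 and 182 NRPKM, against 103 and 98.7 NRPKM in the PTC2- libraries. Cldn8 made up 38.8% and 39.2% of that sum in the PTC2+ libraries, against 7.69% and 4.90% in the PTC2- libraries. Cldn1 made up 35.2% and 41.7% of the sum in PTC2+ and 58.8% and 59.7% in PTC2- libraries. Without Cldn8 the PTC2+ sums were 136 and 111 NRPKM and the PTC2- sums 95.2 and 93.9 NRPKM, so most of the gap between the sums was Cldn8. No test was made of these shares.

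**Figure D2:**
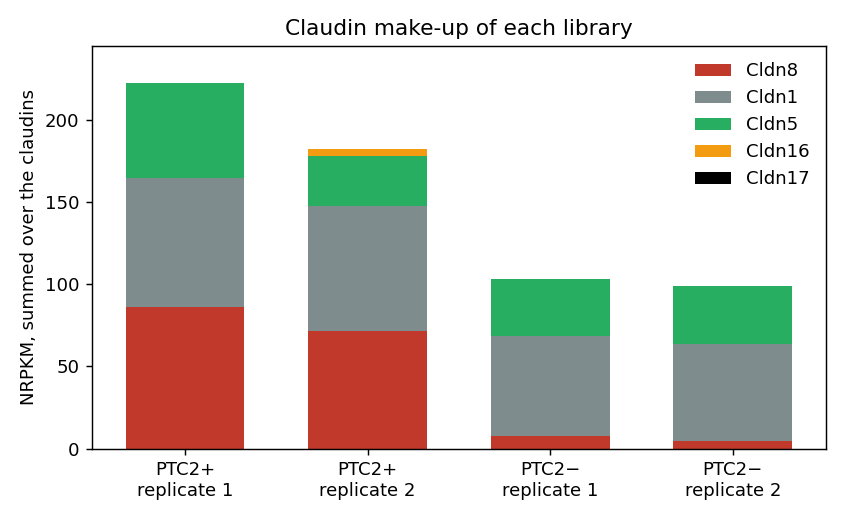
Each bar stacks the NRPKM of the claudins in 1 library, with the 2 PTC2+ libraries left of the 2 PTC2- libraries. The Cldn8 segment is 86.3 and 71.4 NRPKM high in the PTC2+ bars, against 7.93 and 4.84 NRPKM in the PTC2- bars, while the Cldn1 segments span 59.0 to 78.3 NRPKM.

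The rows beside each member were looked at as a check on whether a value is tied to its name. Leprel1 (RefSeq P3h2), a collagen prolyl hydroxylase next to Cldn1, stood at 29.17 and 20.99 NRPKM in PTC2+ and at 18.24 and 16.02 NRPKM in PTC2- libraries. Tmem207, on the far side of Cldn16, was listed at 0 throughout. Cdc45, a replication factor beside Cldn5, stood at 38.44 and 45.07 NRPKM in PTC2+ and at 44.97 and 57.61 NRPKM in PTC2- libraries. The row on the other side of Cldn5 carries a calendar date in place of its symbol (RefSeq Septin5). Around Cldn8 the neighbours tell less. Cldn17 before it and Krtap24-1 and 2310079G19Rik after it were at 0 in all 4 libraries, and Grik1, a glutamate receptor, lay between 0.476 and 1.46 NRPKM. With 0 on both sides, the neighbours alone do not show whether these values belong to the Cldn8 row or to the row next to it.

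**Figure D3:**
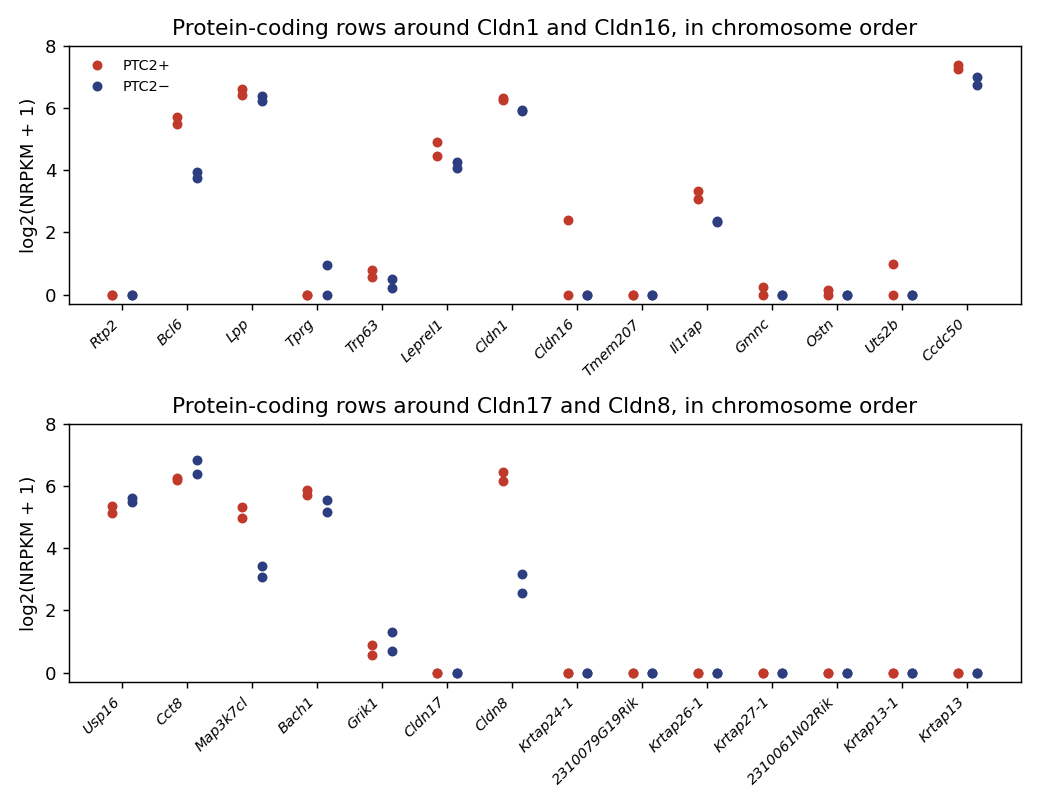
Points give log2(NRPKM + 1) for 14 protein-coding rows around Cldn1 (top) and around Cldn8 (bottom) in chromosome order, PTC2+ in red left of PTC2- in blue, 2 libraries each. Cldn8 (86.3 and 71.4 NRPKM in PTC2+ against 7.93 and 4.84 in PTC2- libraries) stands alone between Cldn17 and the keratin-associated rows, all at 0.

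Likeness of pattern was measured as the Euclidean distance of log2(NRPKM + 1) over the 4 libraries among the 589 protein-coding rows of the range. Nearest to Cldn8 were Map3k7cl (distance 1.75), Bcl6 (1.79) and Il10rb (1.84). Map3k7cl stood at 39.6 and 30.1 NRPKM in PTC2+ and at 9.74 and 7.44 NRPKM in PTC2- libraries. Bcl6 and Il10rb are on the myeloid list described further on, though both are also used outside myeloid cells. Nearest to Cldn1 were Ubn1 (0.136), Fam86 (0.144) and Tmem50b (0.277), much closer in distance than any row came to Cldn8. Nearest to Cldn5 were Dgcr14 (0.447), 2510009E07Rik (0.510) and Slc25a1 (0.536). Slc25a1, the mitochondrial citrate carrier, had its own high value in PTC2+ replicate 1, at 72.2 NRPKM, against 28.2 NRPKM in PTC2+ replicate 2 and 43.4 and 28.7 NRPKM in the PTC2- libraries.

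**Figure D4:**
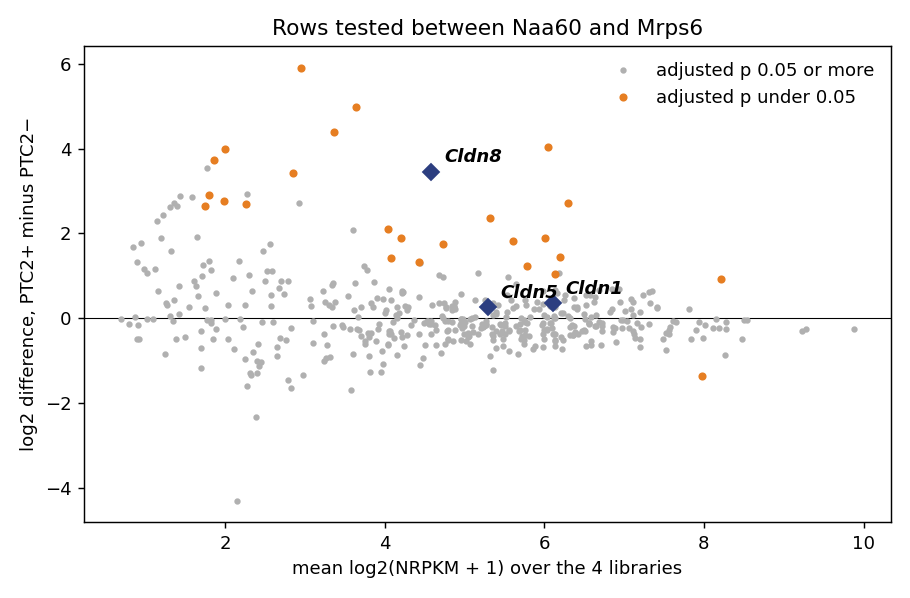
Each point is 1 of the 475 rows tested between Naa60 and Mrps6, with mean log2(NRPKM + 1) across the bottom and the log2 difference PTC2+ minus PTC2- up the side; orange points had an adjusted p under 0.05. Cldn8 lies at 3.46, among the called rows, while Cldn1 (0.36) and Cldn5 (0.26) lie in the main body of rows.

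Of the 10 genes on the list of other cell junction genes, all tested, 0 were called higher and 1 lower by limma, beside 2.44% and 0.483% of all rows. At an unadjusted p under 0.05 there were 3 higher and 2 lower (11.9% and 7.9% of all rows). The gene that fell, Snai2, builds no junction: it encodes SLUG, a repressor of epithelial junction genes, and is on the mesenchymal list too. None of the other 9 genes was called. It stood at 172 and 141 NRPKM in PTC2+ and at 367 and 441 NRPKM in PTC2- libraries, the opposite order to Cldn8 (log2 difference -1.36, SE 0.17, limma adjusted p = 0.0261). Ildr1, an angulin of the corners where 3 epithelial cells meet, stood at 2.91 and 3.99 NRPKM in PTC2+ and at 0.158 and 0.215 NRPKM in PTC2- libraries. Its libraries did not overlap, but it did not pass over all rows (limma adjusted p = 0.0860). Over the rows of the range alone its limma adjusted p was 0.0493, and 8.0% of rows there were called higher and 2.11% lower. PTC2+ values alone carried Ildr1 past the filter. These values of Ildr1, and its part in the 3 higher, are therefore a description and no independent support. The desmosome genes Ppl and Pkp2 averaged 19.5 and 8.59 NRPKM in PTC2+ against 7.78 and 2.29 NRPKM in PTC2- cells and did not pass either (adjusted p 0.1002 and 0.131).

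Cxadr and Pvrl3 had overlapping libraries, while the Cldn25 row and Jam2 lay lower in both PTC2+ libraries without passing the test. Cxadr, the coxsackievirus and adenovirus receptor of tight junctions, averaged 28.8 ± 3.72 NRPKM in PTC2+ cells, against 31.3 ± 2.56 NRPKM in PTC2- cells (log2 difference -0.12, 95% interval -0.64 to 0.40). Pvrl3, a nectin of adherens junctions, averaged 70.2 ± 6.47 and 67.5 ± 2.69 NRPKM in PTC2+ and PTC2- cells (log2 difference 0.05, 95% interval -0.35 to 0.46). The row listed as Cldn25, which RefSeq now calls Cldnd1, a claudin-domain protein outside the family proper, stood at 80.7 and 76.6 NRPKM in PTC2+ and at 92.3 and 103 NRPKM in PTC2- libraries (limma adjusted p = 0.337). Jam2, an adhesion molecule of endothelial and other junctions, averaged 6.26 NRPKM in PTC2+ and 12.9 NRPKM in PTC2- cells (adjusted p = 0.232). The median log2 difference of the junction list was -0.06, beside -0.03 over all rows tested. Without any 1 of the 4 libraries, 0 of these genes were called.

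The epithelial and urothelial list shares Ppl, Pkp2, Cxadr and Ildr1 with the junction list. Of its 16 genes 12 were tested, and 2 were called higher and 0 lower in PTC2+ cells by limma, with 6 higher and 0 lower at an unadjusted p under 0.05. Over all rows 2.44% were called higher, and 11.9% were higher at an unadjusted p under 0.05. Muc20, a membrane mucin of kidney epithelium, stood at 6.69 and 10.8 NRPKM in PTC2+ and at 0.602 and 0 NRPKM in PTC2- libraries (log2 difference 2.91, SE 0.49, limma adjusted p = 0.0474). PTC2+ values alone carried Muc20 past the filter, and Ildr1 as well. The counts of 2 and 6, and the median of the list, are therefore a description and no independent support. St6gal1, a sialyltransferase that is also widely used outside epithelia, stood at 105 and 94.6 NRPKM in PTC2+ and at 51.2 and 44.2 NRPKM in PTC2- libraries (log2 difference 1.05, SE 0.17, adjusted p = 0.0432). Without any 1 of the 4 libraries 0 were called, and with a pseudocount of 0.1 0 were called.

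Lineage-defining genes of that list were at very low levels. Upk1b, a uroplakin of the urothelial plaque, had 0.971 and 0.462 NRPKM in the PTC2+ libraries, against 0 in both PTC2- libraries. Trp63, a transcription factor of basal epithelium, stayed between 0.472 and 0.735 NRPKM in PTC2+ and between 0.172 and 0.420 in PTC2- libraries. Emp2 averaged 27.9 and 32.9 NRPKM and the chloride channel gene Clcn2 24.0 and 29.6 NRPKM in PTC2+ and PTC2- cells, neither past the test. Summed over the list, the PTC2+ libraries had 226 and 238 NRPKM, against 160 and 157 NRPKM in the PTC2- libraries. Without St6gal1 the sums were 121 and 143 NRPKM in the PTC2+ libraries, against 109 and 112 NRPKM in the PTC2- libraries. Its median log2 difference was 0.66, beside -0.03 over all rows tested.

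Tested genes of the myeloid list differed in the direction of Cldn8, and those of the mesenchymal list in the opposite direction. Of the 19 genes on the myeloid list 18 were tested, and 9 were called higher and 0 lower in PTC2+ cells by limma (median log2 difference 2.28). Over all rows 2.44% were called higher, and 5.26% in the range. Some genes of the list are also used outside myeloid cells, among them Klhl6, Bcl6, Nfkbiz and Il10rb of the calls. Cd86, a costimulatory molecule, had 63.3 and 55.5 NRPKM in the PTC2+ libraries, against a listed 0 in each PTC2- library. The list summed to 1078 and 966 NRPKM in PTC2+ and to 268.2 and 245.2 NRPKM in PTC2- libraries, and 6 of its genes were at 0 in both PTC2- libraries. At least those 6 passed the filter on their PTC2+ values alone, and Cd86, Cd200r1 and Stfa2l1 of them were among the calls. The list was also chosen with earlier results of these data known, so its count and median are a description and no independent support. With either PTC2+ library left out the count was 0, and with either PTC2- library left out it was 3. Of the 10 mesenchymal genes 0 were called higher and 1 lower, the gene Snai2 already named, and all 10 log2 differences were negative (median -0.63, with 5 at an unadjusted p under 0.05). Over all rows 0.483% were called lower, and 7.9% were lower at an unadjusted p under 0.05 (10.7% in the range). That list summed to 1369 and 1064 NRPKM in PTC2+ and to 1905 and 1628 NRPKM in PTC2- libraries. The part of these cell types in the Cldn8 difference was not tested.

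None of the endothelial genes, the cell type for which Cldn5 is best known, passed the test. Of 6 tested, 0 were called by limma in either direction, and 3 differences, all negative, had an unadjusted p under 0.05 (median of the list -0.80). That direction and level were found in 7.9% of all rows and 10.7% of those in the range. These 3 were Heg1, Jam2 and Gp1bb. Gp1bb is best known as a platelet gene, and it stood at 3.50 and 1.96 NRPKM in PTC2+ and at 7.89 and 6.10 NRPKM in PTC2- libraries. Of the 6 differences 4 were negative and 2 positive. Heg1, a receptor of endothelial junctions, averaged 49.0 ± 7.49 NRPKM in PTC2+ cells, against 79.3 ± 10.4 NRPKM in PTC2- cells (limma adjusted p = 0.140). Arhgap31 and Adamts1 lay higher in both PTC2+ libraries. Arhgap31 averaged 55.5 and 37.7 NRPKM in PTC2+ and PTC2- cells (limma adjusted p = 0.292), and Adamts1 averaged 241 and 209 NRPKM (limma adjusted p = 0.472). The list summed to 383 and 330 NRPKM in PTC2+ and to 354 and 353 NRPKM in PTC2- libraries. Adamts1, a secreted protease, was most of that sum. Without it the other 5 genes summed to 132 and 99.8 NRPKM in PTC2+ and to 137.5 and 151.8 NRPKM in PTC2- libraries. The part of endothelial cells in the Cldn5 values was not tested.

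**Figure D5:**
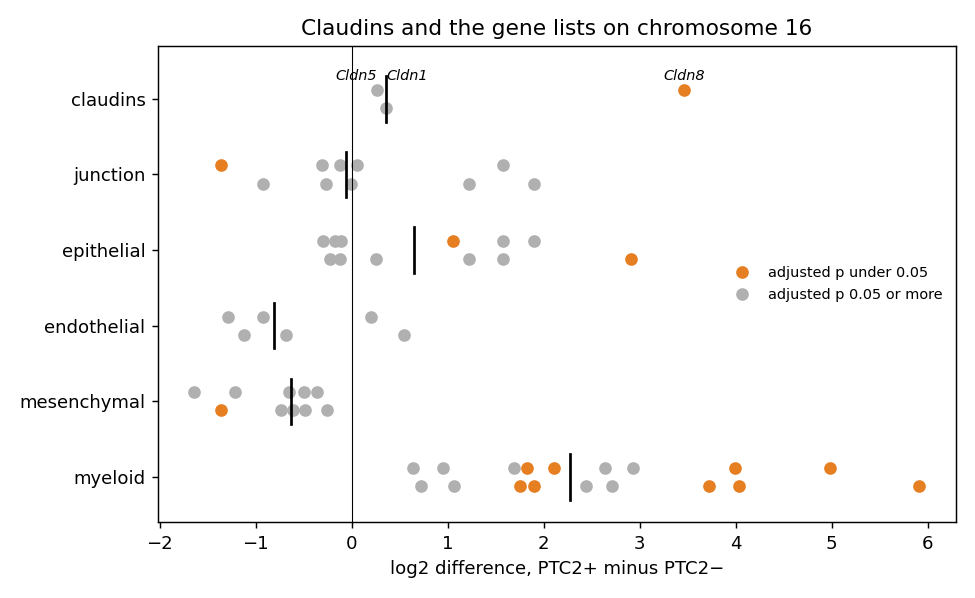
Each point is the log2 difference PTC2+ minus PTC2- of 1 tested gene, by list, with a bar at the list's median; orange points had an adjusted p under 0.05. Cldn8 (3.46) lies in the span of the myeloid list (median 2.28) and beyond every gene of the junction and epithelial lists, whose medians are -0.06 and 0.66.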

How the data were processed

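RNA of sorted cells went through NuGEN Ovation amplification and Nextera XT library preparation, per the labels' protocols. The 4 libraries shared 1 lane, per the file headers. TopHat2 2.0.5, TopHat and Cufflinks 2.0.0 and the build mm9 are named in the submitters' processing notes; the counting tool and gene models are not given in the sources used here. Per the file headers, the authors deposited normalized RPKM (NRPKM), with no formula for the normalization.

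Of 36186 gene IDs, 32916 matched RefSeq (GRCm38.p6), which served for names and gene order. Genes between Naa60 and Mrps6 (974 rows, 589 protein-coding) are described by name, since many names elsewhere stand beside values of other genes' kind. The members, range and lists were chosen with earlier results of these data known.

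The test was limma 3.58.1 (R 4.3.3; mean-variance trend) on log2(NRPKM + 1) over the whole table, for rows that reached 1 NRPKM in 2 or more libraries. P-values were adjusted by Benjamini-Hochberg over all rows, with a threshold of 0.05. Differences on this scale understate the change of low genes. The fit was tested on simulated data. The value of 1 read is the most common low value, times gene length, of pseudogenes and Olfr, Gm and Vmn rows under 3000 bp; 17 of 128 to 41 of 178 low values lay within 0.5% of it. Read equivalents use GENCODE M21 transcript lengths. Coding sequences were aligned with Biopython 1.88. Genes were named by list membership, as the 3 nearest in pattern and as the 2 coding neighbours on each side. Alternatives were pseudocounts, filters, no trend, scalings, a replicate block, adjustment over the range alone and each library left out.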

Additional observations from a re-analysis of the deposited data

How the results depend on the processing

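The log2 difference of Cldn8 stayed between 2.89 and 3.64 over the 8 alternatives that kept all libraries and were adjusted over all rows, and was 3.15 to 3.77 with a library left out. Its call was lost with no filter (3.46, adjusted p = 0.0974; claudins called 0) and, with 1 PTC2+ library set against 2, without either PTC2+ library. Cldn1 stayed between 0.31 and 0.38 and did not pass under any alternative run; Cldn5 ran from -0.19 to 0.72 with a library left out and turned direction without PTC2+ replicate 1 (-0.19). Rows called over the table (345) were 0 with no filter (limma; 2596 had an unadjusted p under 0.05), 200 with no trend, 214 with a pseudocount of 0.1 and 0 to 42 with a library left out. In the chromosome 16 range (26) they were 48 adjusted over the range alone, where fewer rows are tested, 0 with no filter, 12 with no trend and 0 to 6 with a library left out. Every list count was 0 with no filter. The epithelial count (2) was 0 with no trend or a pseudocount of 0.1 and 1 with a pseudocount of 5, quantile normalization, rescaled to the same median, or the replicate block. The junction count (1) was 2 adjusted over the range and 0 with no trend. The mesenchymal count (1) was 3 adjusted over the range, 0 with no trend, and 2 with a filter of 5 NRPKM, a pseudocount of 5, quantile normalization, rescaling or the replicate block. With a library left out the epithelial, junction and mesenchymal counts were 0 to 0, the myeloid count (9) 0 to 3 and claudins called 0 to 1. The cause of these changes was not tested. Libraries with the same number had deviations that correlated at 0.0229 over 11807 rows. The column headers give PTC2+ and PTC2- libraries of the same number a shared tag whose meaning is not stated. With 2 libraries a group the correlation cannot show whether they are pairs. The main fit did not pair them, and with the replicate block Cldn8 kept its call (limma adjusted p = 0.0114). Cldn16 and Cldn17 were too low to be tested under the main filter, and Cldn17, at 0, under no filter either. The share of Cldn8 in the claudin sum differed by 32.7 percentage points, 31.3 to 34.1 with a library left out.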
